A study of Mus musculus with 5 samples.

Results

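The 38 genes described here were listed by name for their roles, the transcription factor MYC with its partners and genes that make ribosomes in the nucleolus. The list was chosen with earlier results of these data known. Its shares beside those of all genes therefore describe the list and do not test it. A gene was taken as measured when a probe set carried its symbol alone, which held for 37 of the 38 genes among 18193 genes in all. The signal of Npm3, a nucleolar histone chaperone, was not analysed here. RNA came from CXCR6+ CD4+ T cells (2 arrays) and CXCR6- CD4+ T cells (2 arrays) of the colonic lamina propria (LP) of mice with colitis. It also came from CD45RBhigh CD4+ naive T cells (1 array), and was measured on Affymetrix mouse genome arrays. The LP cells were the progeny of CD4+CD25-CD45RBhigh T cells of BALB/c spleen, taken from Rag1-/- recipients, which have no T or B cells of their own, at 6 weeks after transfer by a footnote of the supplement on these arrays, whereas the general methods give 8 weeks for colitic recipients. The labels write CXCR6 Hi and CXCR6 Lo for the subsets. The naive cells came from the spleen according to the methods and the source label, whereas the description label of the same array names the LP of healthy mice. The labels give BALB/c as the background of all 5 arrays, and the methods an age at use of 8 to 12 weeks for the mice of the study. The number of mice behind an array was not found in the labels or methods. The p-values below measure only the spread between the 2 arrays of each LP group, and the 1 naive array adds no spread of its own.

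MYC is a transcription factor that binds DNA as a dimer with MAX, above all at the E-box CACGTG, and that is known for raising the transcription of genes for ribosome production when T cells are activated and grow. MXD1, MXD4 and MNT compete with MYC for MAX and repress from the same sites. In the nucleolus, RNA polymerase I transcribes the precursor of ribosomal RNA, small nucleolar ribonucleoproteins (snoRNPs) modify it, and 2 sets of assembly factors, the small subunit processome and the large subunit factors, cut and fold it into subunits.

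Of the 37 genes, 21 were lower and 2 were higher in LP T cells than in naive T cells, and 14 did not pass the test. The LP value is the mean of the CXCR6+ and CXCR6- groups on the log2 scale, the test is limma with Benjamini-Hochberg adjustment over all 18193 genes, and a gene was called at an adjusted p under 0.05. The lower genes were 56.8% of the 37, against 18.8% of all genes. The higher genes, Mxd1 and Odc1, were 5.41% of the 37, against 15.1% of all genes. The median log2 difference was -1.40 over the 37 genes, with a range of -6.48 to 5.96, and -0.14 over all genes. Among the 6995 genes whose mean signal lay in the range that holds most of the 37 (3.66 to 66.9), the median was -0.58, and 31.1% were called lower and 10.6% higher. Array by array, the median difference of the 37 genes from the naive array was -1.44 and -1.21 on the CXCR6+ arrays and -1.44 and -1.36 on the CXCR6- arrays.

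By signals alone, 29 of the 37 genes (78.4%) were lower on all 4 LP arrays than on the naive array, against 40.9% of all genes, and 4 (10.8%) were higher on all 4, against 35.0% of all genes. The 4 higher genes were Mxd1, Npm1, Odc1 and Nme1. For the remaining 4, Mxd4, Polr1c, Ncl and Nhp2, the naive signal lay within the range of the LP signals. Signals here are the deposited linear values, on which each array has a median of 1.

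The calls rested on few arrays. With either CXCR6+ array left out, 5 of the 37 genes were still lower (Wdr43, Nop2, Noc2l, Ppan and Ddx21), against 4.53% and 5.16% of all genes. The higher genes lost their calls whichever LP array was left out, with limma adjusted p of 0.053 to 0.0658 for Mxd1 and 0.0505 to 0.0556 for Odc1. The only gene then called higher was Nme1, with either CXCR6+ array left out. With either CXCR6- array left out, every call over all genes was lost, in either direction. With quantile normalization, which gives all arrays the same spread of signals, 13 genes were lower (35.1%, against 11.9% of all genes). Of the 21 lower genes, the 8 that then did not pass were Myc, Nop58, Gar1, Nop14, Rrp9, Rrp12, Utp20 and Nop16, at log2 differences of -0.85 to -1.58.

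**Figure D1:**
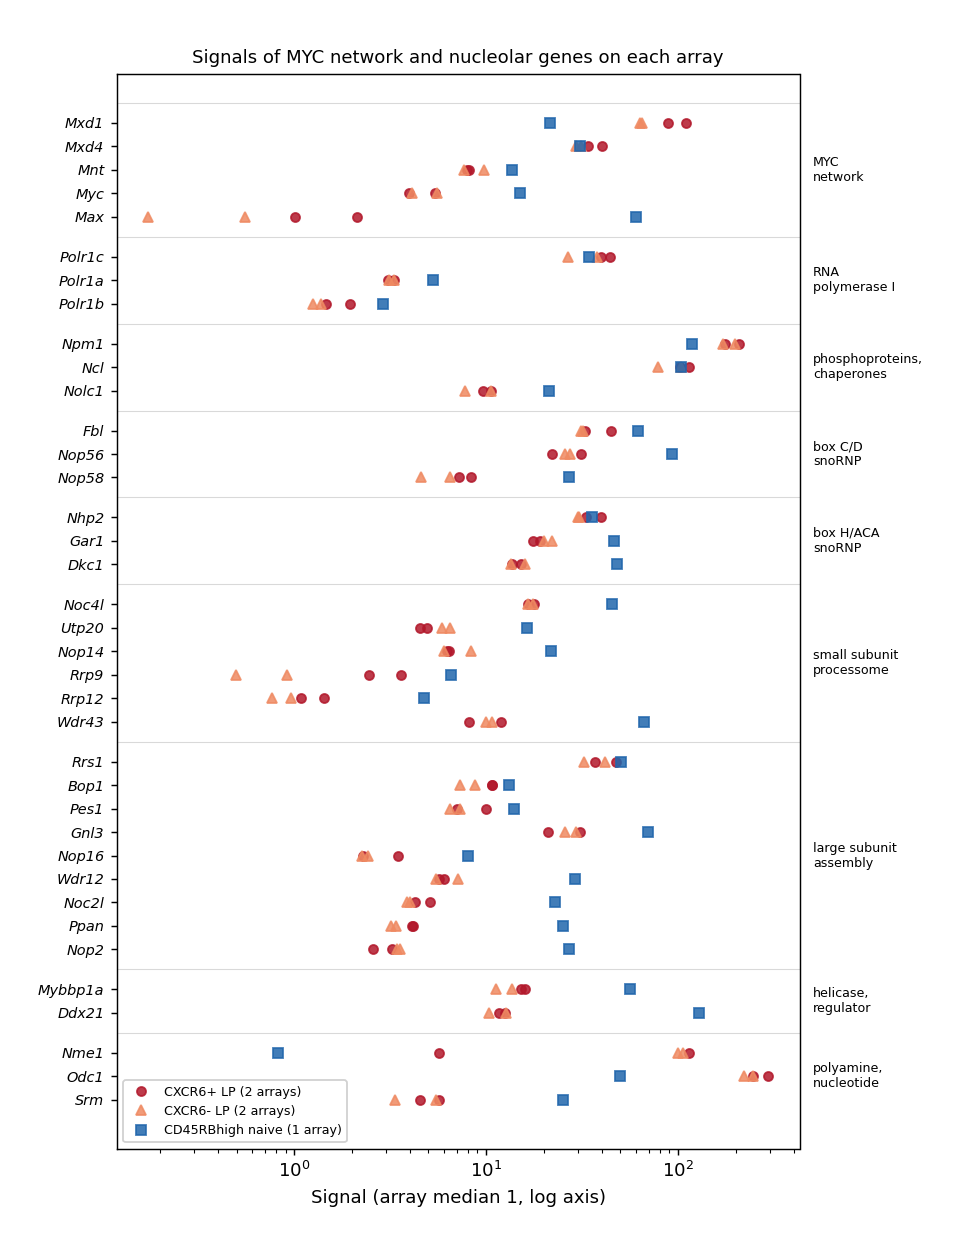
Signal of each of the 37 genes on each array, on a log axis on which the array median is 1, grouped by role. Circles are the 2 CXCR6+ LP arrays, triangles the 2 CXCR6- LP arrays and squares the naive array. For 29 genes all 4 LP symbols lie left of the naive square, and for Mxd1, Npm1, Odc1 and Nme1 they lie right of it.

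The LP arrays and the naive array differed in more than the cell type. Signals of Xist, transcribed from the inactive X chromosome, were 181 to 215 in LP T cells, against 0.864 in naive T cells, and those of the Y-linked gene Eif2s3y were 1.59 to 3.41, against 53.5. The poly-A control RNA Dap, added during preparation, had 64.6 to 102 in LP T cells, against 0.194 in naive T cells. The hybridization control BioB went the other way, with 5.91 to 7.72 in LP T cells, against 21.4 in naive T cells. The 3′ to 5′ ratio of Gapdh signals, a measure of RNA quality, was 2.81 to 6.96 in LP T cells, against 1.51 in naive T cells. Spearman's correlation across genes was 0.951 to 0.957 for pairs of LP arrays, against 0.821 to 0.826 for pairs with the naive array. The upper quartile of all signals was 4.73 to 5.39 in LP T cells, against 7.54 in naive T cells. By the methods, LP cells were freed from colon with enzymes, whereas spleens were disrupted mechanically. Sex, tissue, colitis, the Rag1-/- host, preparation and cell type changed together between these arrays. These cannot be told apart in any comparison with naive T cells below. In bulk RNA, fewer cells of a type and less RNA per cell cannot be told apart either.

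Markers of other cells moved with the same contrast. Of 7 stromal markers, 5 were higher in LP T cells, and the summed signal of the 7 was 97.8 to 159 in LP T cells, against 9.82 in naive T cells. Col1a1 (log2 difference -1.49) was below the naive array on all 4 LP arrays and did not pass. Of 7 myeloid markers, 3 were higher (Cd14, Lyz2 and Csf1r), and the sums of the 7 were 258 to 336 in LP T cells, against 102 in naive T cells. Cd68 (-0.86) and Itgam (-0.70) were below the naive array on all 4 LP arrays and did not pass. Of 6 B cell markers, 5 were lower and 1 (Pax5) was higher, with sums of 4.20 to 5.36 in LP T cells, against 55.0 in naive T cells. Of 10 epithelial markers, 7 were above the naive array on all 4 LP arrays, and Krt8 and Krt18 were higher by the test. Krt8 had 9.36 and 25.4 in CXCR6+ cells, 10.3 and 29.6 in CXCR6- cells and 0.387 in naive T cells, and the median log2 difference of the 10 was 1.95. Their summed signal was 46.5 to 96.1 in LP T cells, against 106 in naive T cells, of which Car1 alone, the 1 lower marker, made up 85.2. Of 3 CD8 T and NK cell markers, Ncr1 was lower, and the sums were 2.50 to 5.38 in LP T cells, against 28.3 in naive T cells. T cell markers summed to 343 to 538 in LP T cells, against 491 in naive T cells, and of the 6 measured Cd3e and Cd3d were lower in LP T cells. Of the 2 naive T cell markers measured, Lef1 had signals of 8.80 to 15.0 in LP T cells, against 99.8 in naive T cells (log2 difference -3.13, limma adjusted p = 0.019), and Ccr7 had 13.6 to 31.9, against 51.8, and did not pass. The part of the other cells in the differences was not tested.

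Within the MYC network, Myc and Max were lower and Mxd1 was higher in LP T cells. Myc had signals of 5.404 and 3.951 in CXCR6+ cells, 5.565 and 4.105 in CXCR6- cells and 15.1 in naive T cells. All LP signals were below the naive signal, by a log2 difference of -1.68 (SE 0.35, limma adjusted p = 0.0376), or 3.21-fold lower. With quantile normalization between arrays the difference of Myc was -0.93 and did not pass (limma adjusted p = 0.163).

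Max, the shared partner of MYC and of its competitors, had signals of 2.12 and 1.01 in CXCR6+ cells, 0.173 and 0.556 in CXCR6- cells and 60.3 in naive T cells. Its log2 difference of -6.48 (SE 0.85, limma adjusted p = 0.018) was the largest fall among the 37 genes. Both CXCR6- signals lay below the array median of 1, and no detection call was used, so the size of this fall is uncertain. A single probe set measured Max.

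Mxd1, which encodes a repressor that binds MAX in place of MYC, had signals of 88.7 and 109 in CXCR6+ cells, 64.8 and 63.0 in CXCR6- cells and 21.5 in naive T cells. All 4 LP arrays were above the naive array, by a log2 difference of 1.88 (SE 0.27, limma adjusted p = 0.0198), or 3.69-fold. Its other probe sets were split. One with signals of 4.91 and 7.45 in CXCR6+ cells, 3.99 and 5.98 in CXCR6- cells and 13.4 in naive T cells gave -1.30, and a dim one gave 3.37. With the mean of the 3 probe sets, the difference of Mxd1 was 1.32 and did not pass (limma adjusted p = 0.0613).

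Mxd4, a repressor of the same family, had signals of 33.9 and 40.2 in CXCR6+ cells, 31.2 and 29.4 in CXCR6- cells and 30.8 in naive T cells, a log2 difference of 0.12 (SE 0.26, limma adjusted p = 0.746). Mnt, another MAX-binding repressor, had signals of 8.09 and 7.95 in CXCR6+ cells, 7.64 and 9.68 in CXCR6- cells and 13.6 in naive T cells. Its log2 difference of -0.72 (SE 0.27, limma adjusted p = 0.124) did not pass, and with quantile normalization it was 0.04.

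The promoters of the 37 genes and Npm3 were searched for the E-box CACGTG, which reads the same on both strands. Windows of 250 bases before to 50 bases after the transcription start, from RefSeq (GRCm38.p6), were found for 31 of the 38 genes. Of these, 9 (29.0%) held CACGTG in at least 1 window. The share was 10.2% among the 14452 genes that were tested and have a window and 8.09% among all 27025 genes with a window. Among genes with a window, 5 of 18 called lower in LP T cells held CACGTG (27.8%), and 4 of the 12 other measured genes (33.3%). The 9 genes were Max, Mnt, Mxd4, Mybbp1a, Nme1, Nop2, Pes1, Utp20 and Wdr43. No match stood in the windows of Mxd1 and Odc1, the genes that were higher. The promoters of Max, Nop2 and Wdr43 are shown because these genes had the largest falls among those with a match, and they were chosen after their values were seen. Each is given 5′ to 3′ on the strand of the gene, from 120 bases before to 30 bases after the start, with CACGTG in capitals. A match is a run of letters and no evidence of binding.
Max, chr12:76962219-76962368, minus strand, match at -3 from the start: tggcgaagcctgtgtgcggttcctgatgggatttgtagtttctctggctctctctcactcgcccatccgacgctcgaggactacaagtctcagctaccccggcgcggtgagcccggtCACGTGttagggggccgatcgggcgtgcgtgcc
Nop2, chr6:125131763-125131912, plus strand, match at -60: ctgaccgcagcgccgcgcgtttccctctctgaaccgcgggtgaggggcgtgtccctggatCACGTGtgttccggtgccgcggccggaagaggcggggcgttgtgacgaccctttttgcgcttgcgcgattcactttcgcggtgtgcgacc
Wdr43, chr17:71616095-71616244, plus strand, match at 18: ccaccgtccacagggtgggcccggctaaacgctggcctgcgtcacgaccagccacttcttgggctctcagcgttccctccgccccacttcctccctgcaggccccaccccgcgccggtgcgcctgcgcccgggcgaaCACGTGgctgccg

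The 3 RNA polymerase I subunits of the list did not pass the test. Polr1d and Polr1e, subunits outside the list, passed in opposite directions and are given below. Polr1a, the largest subunit, had signals of 3.32 and 3.09 in CXCR6+ cells, 3.11 and 3.30 in CXCR6- cells and 5.28 in naive T cells, a log2 difference of -0.72 (SE 0.24, limma adjusted p = 0.096) that was 0.08 with quantile normalization. Polr1b, the second largest, had signals of 1.96 and 1.47 in CXCR6+ cells, 1.37 and 1.25 in CXCR6- cells and 2.91 in naive T cells, a log2 difference of -0.97 (SE 0.30, limma adjusted p = 0.080). For both, all 4 LP signals were below the naive signal. Polr1c, a subunit shared with RNA polymerase III, had signals of 39.7 and 44.4 in CXCR6+ cells, 37.9 and 26.8 in CXCR6- cells and 34.2 in naive T cells, so that the groups overlapped.

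Among the abundant nucleolar phosphoproteins none of the 3 measured genes passed, although their probe sets did not run together. Ncl (nucleolin) had signals of 102 and 113 in CXCR6+ cells, 104 and 78.4 in CXCR6- cells and 103 in naive T cells, a log2 difference of -0.07 (SE 0.29, limma adjusted p = 0.87). The 4 other probe sets of Ncl gave -1.08 to -3.06, and the mean of all 5 was -1.67, which passed (limma adjusted p = 0.0381). Npm1 (nucleophosmin) had signals of 174 and 207 in CXCR6+ cells, 198 and 171 in CXCR6- cells and 118 in naive T cells. Its log2 difference of 0.66 (SE 0.27, limma adjusted p = 0.141) did not pass and was -0.10 with quantile normalization. The other probe set of Npm1 gave -1.63. Nolc1, which chaperones snoRNPs, had signals of 9.66 and 10.6 in CXCR6+ cells, 10.6 and 7.79 in CXCR6- cells and 21.1 in naive T cells, a log2 difference of -1.14 (SE 0.30, limma adjusted p = 0.0599). The other probe sets of Nolc1 gave -5.90 and -2.65, and the mean of its 3 was -3.23, which passed (limma adjusted p = 0.0235).

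Of the box C/D snoRNP proteins, which guide methylation of ribosomal RNA, Nop56 and Nop58 were lower in LP T cells (66.7%, against 18.8% of all genes). Nop58 had signals of 7.24 and 8.36 in CXCR6+ cells, 6.49 and 4.60 in CXCR6- cells and 26.9 in naive T cells, a log2 difference of -2.05 (SE 0.32, limma adjusted p = 0.0232). Nop56 had signals of 21.9 and 31.0 in CXCR6+ cells, 25.6 and 27.4 in CXCR6- cells and 92.8 in naive T cells, or 3.54-fold lower (log2 difference -1.82, SE 0.32, limma adjusted p = 0.0267). Fbl (fibrillarin), the methyltransferase of these particles, had signals of 32.6 and 44.5 in CXCR6+ cells, 31.7 and 31.0 in CXCR6- cells and 61.6 in naive T cells. All LP signals of Fbl were below the naive signal, but its log2 difference of -0.83 (SE 0.30, limma adjusted p = 0.110) did not pass.

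The box H/ACA snoRNPs guide pseudouridylation, and 2 of their 3 listed proteins were lower (66.7%, against 18.8% of all genes). Dkc1 (dyskerin), the pseudouridine synthase, had signals of 13.7 and 15.2 in CXCR6+ cells, 13.4 and 15.9 in CXCR6- cells and 47.8 in naive T cells, or 3.30-fold lower (log2 difference -1.72, SE 0.26, limma adjusted p = 0.0222). Gar1 had signals of 17.6 and 19.0 in CXCR6+ cells, 19.9 and 22.1 in CXCR6- cells and 46.4 in naive T cells, or 2.37-fold lower (limma adjusted p = 0.0341). Nhp2 had signals of 33.2 and 39.6 in CXCR6+ cells, 30.5 and 29.98 in CXCR6- cells and 35.5 in naive T cells. Its log2 difference was -0.10 (SE 0.26, limma adjusted p = 0.786), and 0.36 with quantile normalization. This probe set of Nhp2 is of the _s_at type. The other had 3.34 and 4.56 in CXCR6+ cells, 2.94 and 3.26 in CXCR6- cells and 10.4 in naive T cells, a difference of -1.59, which passed when _s_at and _x_at probe sets were left out (limma adjusted p = 0.0338).

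On the probe sets used, all 6 small subunit processome genes of the list were lower (100%, against 18.8% of all genes). Their log2 differences were -1.40 to -2.72. Wdr43, a subunit of the complex that first meets the nascent transcript, had signals of 8.11 and 11.9 in CXCR6+ cells, 10.7 and 9.91 in CXCR6- cells and 66.4 in naive T cells, or 6.60-fold lower (log2 difference -2.72, SE 0.33, limma adjusted p = 0.0163). A second probe set of Wdr43 had 19.1 and 16.5 in CXCR6+ cells, 21.4 and 18.5 in CXCR6- cells and 18.8 in naive T cells, with a log2 difference of 0.005, so the fall was seen on 1 of its 2 probe sets. Rrp12, an export factor of both subunits in yeast, had signals of 1.43 and 1.08 in CXCR6+ cells, 0.960 and 0.765 in CXCR6- cells and 4.77 in naive T cells (log2 difference -2.21, SE 0.32, limma adjusted p = 0.0203). Rrp9, a protein of the U3 snoRNP, had signals of 2.44 and 3.60 in CXCR6+ cells, 0.915 and 0.494 in CXCR6- cells and 6.52 in naive T cells (log2 difference -2.21, SE 0.49, limma adjusted p = 0.0432). The other 3, Nop14, Utp20 and Noc4l, differed by -1.70, -1.60 and -1.40, and on no LP array did they reach the naive signal. Noc4l had -0.63 without probe sets of the _s_at and _x_at types and did not pass there (limma adjusted p = 0.155).

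Large subunit assembly was represented by 9 genes, of which 6 were lower (66.7%, against 18.8% of all genes) and none higher. Nop2, a methyltransferase of large subunit RNA, had signals of 3.21 and 2.57 in CXCR6+ cells, 3.57 and 3.43 in CXCR6- cells and 26.9 in naive T cells, or 8.48-fold lower (log2 difference -3.08, SE 0.27, limma adjusted p = 0.0125). Ppan had signals of 4.14 and 4.13 in CXCR6+ cells, 3.19 and 3.39 in CXCR6- cells and 25.1 in naive T cells, or 6.80-fold lower (limma adjusted p = 0.0123). Noc2l, the homolog of a yeast factor that escorts the large subunit precursor out of the nucleolus, had signals of 5.07 and 4.25 in CXCR6+ cells, 3.98 and 3.86 in CXCR6- cells and 22.9 in naive T cells, or 5.37-fold lower (limma adjusted p = 0.0146). On the probe sets used, the LP arrays lay close together and well below the naive array for these 3 genes. A second probe set of Noc2l had 4.1 and 4.4 in CXCR6+ cells, 4.7 and 5.3 in CXCR6- cells and 7.1 in naive T cells. Its log2 difference was only -0.61. Wdr12, Nop16 and Gnl3 (nucleostemin) were lower as well, by log2 differences of -2.26, -1.65 and -1.40.

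WDR12 works in a complex with BOP1 and PES1, and of the 3 only Wdr12 passed the test (limma adjusted p = 0.0167). The log2 difference of Pes1 was -0.88 (limma adjusted p = 0.113), and its other probe set gave 1.52. Bop1 had -0.51 (limma adjusted p = 0.200), with 1.78 on its other probe set and 0.25 under quantile normalization. Whether Wdr12 differed more than its partners was not tested. Rrs1, the remaining large subunit gene, had a log2 difference of -0.36 (limma adjusted p = 0.427) on a probe set of the _x_at type. Its other probe set had 5.57 and 8.07 in CXCR6+ cells, 4.92 and 4.87 in CXCR6- cells and 29.3 in naive T cells, a difference of -2.36, which passed without _s_at and _x_at probe sets (limma adjusted p = 0.0197).

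Ddx21 and Mybbp1a, which link RNA polymerase I transcription to processing and to nuclear regulators, were both lower. Ddx21, an RNA helicase, had signals of 12.5 and 11.7 in CXCR6+ cells, 10.4 and 12.7 in CXCR6- cells and 129 in naive T cells, or 10.9-fold lower (log2 difference -3.45, SE 0.27, limma adjusted p = 0.012). A second probe set of Ddx21 had 12.7 and 17.9 in CXCR6+ cells, 14.1 and 14.1 in CXCR6- cells and 15.4 in naive T cells, a log2 difference of -0.08, so this fall too was seen on 1 of 2 probe sets. Mybbp1a, a MYB-binding repressor found in the nucleolus, had signals of 16.0 and 15.2 in CXCR6+ cells, 11.3 and 13.6 in CXCR6- cells and 56.3 in naive T cells, or 4.05-fold lower (log2 difference -2.02, SE 0.26, limma adjusted p = 0.0176). Its other probe set gave -3.003.

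**Figure D2:**
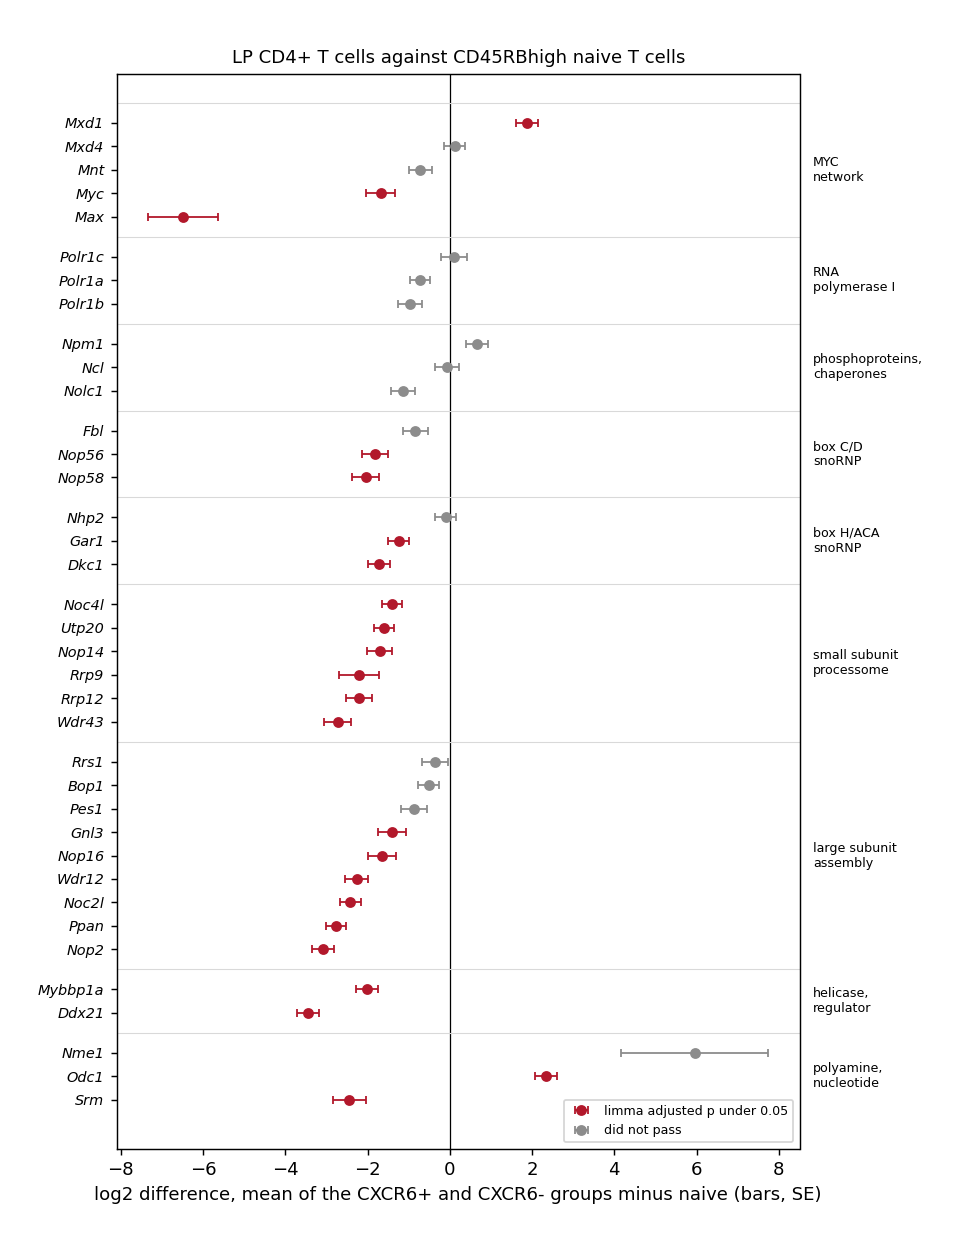
Log2 difference of each gene between LP T cells (mean of the CXCR6+ and CXCR6- groups) and naive T cells, with bars of 1 SE from limma, grouped by role. Red points have an adjusted p under 0.05 and gray points do not. The 21 lower genes span -1.24 to -6.48, and Mxd1 (1.88) and Odc1 (2.33) are the red points right of 0.

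Of the polyamine and nucleotide enzymes, Odc1 was higher and Srm lower in LP T cells. Odc1, ornithine decarboxylase, which makes putrescine in the first step of polyamine synthesis, had signals of 245 and 295 in CXCR6+ cells, 245 and 219 in CXCR6- cells and 49.6 in naive T cells. It was 5.03-fold higher in LP T cells (log2 difference 2.33, SE 0.27, limma adjusted p = 0.0155), and its other probe sets gave 2.98 and 1.60. Srm, spermidine synthase, which acts on the product of ODC1, had signals of 4.50 and 5.65 in CXCR6+ cells, 3.34 and 5.44 in CXCR6- cells and 25.2 in naive T cells. It was 5.44-fold lower (log2 difference -2.44, SE 0.40, limma adjusted p = 0.0243).

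Nme1, a nucleoside diphosphate kinase, gave the most unequal values of the list. Its brighter probe set had signals of 113 and 5.70 in CXCR6+ cells, 106 and 99.97 in CXCR6- cells and 0.824 in naive T cells, a log2 difference of 5.96 (SE 1.79, limma adjusted p = 0.0776). CXCR6+ replicate 2 thus lay between the other LP arrays and the naive array. This probe set is of the _x_at type, which can cross-hybridize, and Nme2 is a near-identical neighbor of Nme1. The other probe set of Nme1 had 30.8 and 32.2 in CXCR6+ cells, 22.6 and 22.2 in CXCR6- cells and 78.3 in naive T cells. On it the difference was -1.56, which passed when probe sets of the _s_at and _x_at types were left out (limma adjusted p = 0.0232), and the direction of Nme1 is therefore uncertain.

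In all, 76 probe sets measured the 37 genes, and 13 genes had a single one. Of the 17 other probe sets of called genes, 15 had the sign of the probe set used, and 13 of 15 did among those with a mean signal of at least 1. The exceptions were the probe sets of Mxd1 and Wdr43 given above. The other probe set of Ddx21 counted as the same sign at only -0.08. On every LP array the other probe sets of Ddx21 and Wdr43 were brighter than those used, which were brightest on average through the naive signal. The same held for Noc2l on every LP array but CXCR6+ replicate 1. Choosing by mean signal can thus favor probe sets with a fall.

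**Figure D3:**
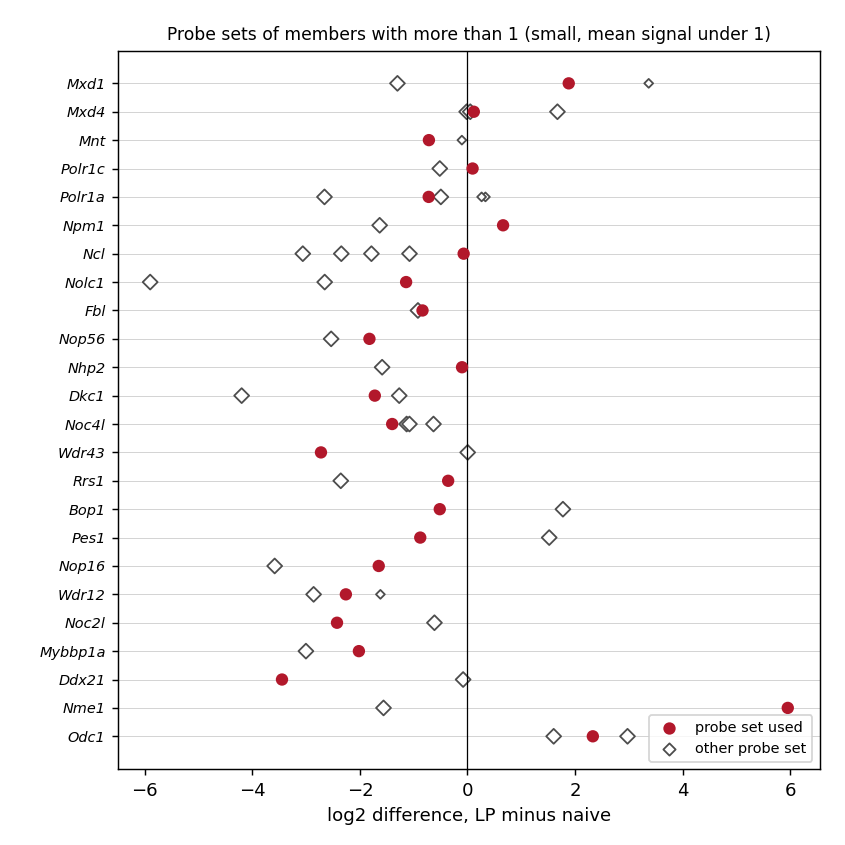
Log2 difference between LP and naive T cells for each probe set of the genes that have more than 1. Filled circles are the probe sets used, those with the highest mean signal, open diamonds the others, and small diamonds have a mean signal under 1. The diamonds of Npm1, Bop1, Pes1, Polr1c and Nme1 lie on the other side of 0 from the circle, as does at least 1 diamond of Mxd1, Mxd4, Polr1a and Wdr43, and Ncl has 4 diamonds at -1.08 to -3.06.

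Taken separately, the subsets were set against the 1 naive array that both comparisons share. In CXCR6+ cells 18 genes (48.6%) were lower, against 15.3% of all genes, and 2 (5.41%) were higher, against 13.2% of all genes. In CXCR6- cells 18 genes (48.6%) were lower, against 16.7% of all genes, and 2 (5.41%) were higher, against 12.8% of all genes. With any 1 LP array left out, every call over all genes was lost in both subsets. The median log2 difference of the 37 genes was -1.39 in CXCR6+ cells and -1.40 in CXCR6- cells, and that of all genes -0.11 and -0.16. Of the called genes, 18 were called in both subsets. Myc passed in CXCR6+ cells (-1.71, limma adjusted p = 0.0484) and missed in CXCR6- cells (-1.66, limma adjusted p = 0.0502). Gar1 likewise had -1.35 in CXCR6+ cells (limma adjusted p = 0.0396) and -1.14 in CXCR6- cells (limma adjusted p = 0.0519). Nop16 had -1.52 in CXCR6+ cells (limma adjusted p = 0.0594) and -1.78 in CXCR6- cells (limma adjusted p = 0.0435). These differences lie on either side of the threshold and do not show that the subsets differ.

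Between the subsets 0 of the 37 genes passed the adjusted test, as did 0.0% of all genes. At an unadjusted p under 0.05, limma gave 2 of the 37 genes (5.41%), against 6.55% of all genes. The test that the methods name gave 2 genes (5.41%) at an unadjusted p under 0.05, Utp20 and Ppan, against 7.05% of all genes, and 0 of the 37 and 1 of all genes after adjustment. The median log2 difference, CXCR6+ minus CXCR6-, was 0.21 over the 37 genes and 0.08 over all genes, with 25 of the 37 above 0 and 12 below. For 31 genes the difference was under 0.5 in size. The 95% intervals, which are not adjusted, reached a median of 0.76 to either side, so that differences of this size could have been missed. After adjustment larger differences did not pass either, such as those of Rrp9 (2.14) and Max (2.24).

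The 2 genes at an unadjusted p under 0.05 were Rrp9 and Max, both measured at low signals. The ratio of CXCR6+ to CXCR6- cells was 4.41 for Rrp9 (log2 difference 2.14, SE 0.44, 95% interval 0.87 to 3.41, limma unadjusted p = 0.0102, adjusted p = 0.626). It was 4.72 for Max (log2 difference 2.24, SE 0.76, 95% interval 0.04 to 4.44, limma unadjusted p = 0.0475, adjusted p = 0.755). For each, both CXCR6+ signals lay above both CXCR6- signals, and both subsets lay far below the naive array for Max. Against naive T cells, Rrp9 had -1.14 in CXCR6+ cells (limma adjusted p = 0.192) and -3.28 in CXCR6- cells (limma adjusted p = 0.0285).

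In signals alone, both CXCR6+ arrays were above both CXCR6- arrays for 14 genes (37.8%), against 25.1% of all genes, and below them for 3 (8.11%; Gar1, Utp20 and Nop2), against 14.3% of all genes. RNA quality differed between the subsets too, with 3′ to 5′ ratios of Gapdh of 2.81 and 3.98 in CXCR6+ cells and 4.19 and 6.96 in CXCR6- cells. T cell markers summed to 500 and 538 in CXCR6+ cells and 413 and 343 in CXCR6- cells. The part of either in the subset differences was not tested. The 14 included Max, Mxd1, Mxd4, Fbl, Nop58, Rrp9 and Ppan. Mxd1 had a log2 difference of 0.62 between the subsets (95% interval -0.06 to 1.31, limma adjusted p = 0.761). That of Myc was -0.05 (95% interval -0.95 to 0.85), and that of Odc1 0.21 (95% interval -0.47 to 0.90). Nme1 had -2.02, with an interval of -6.63 to 2.59 set by the single low CXCR6+ array. Apart from Max, Rrp9 and Nme1, the other 34 genes lay between -0.39 and 0.62.

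**Figure D4:**
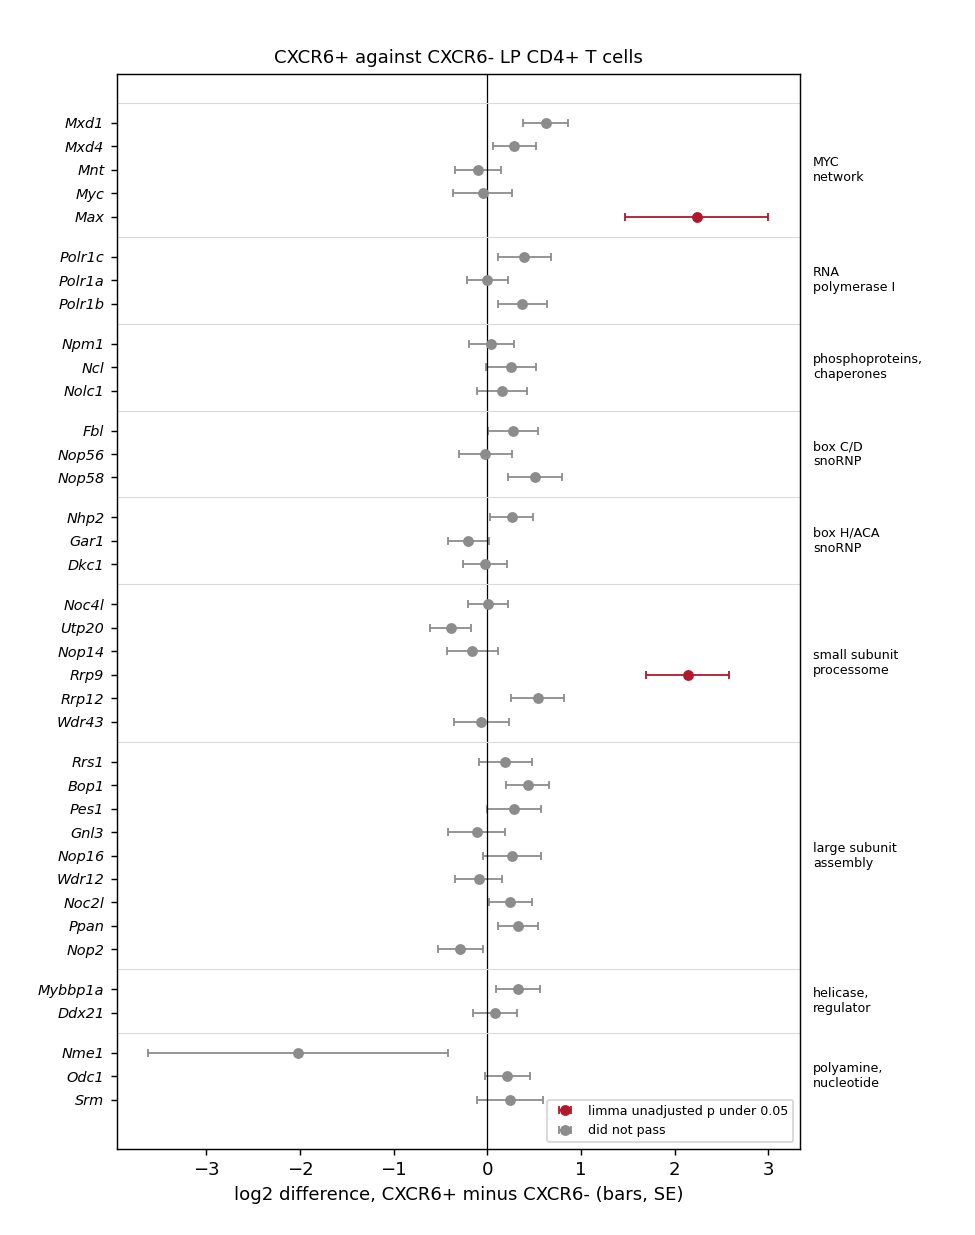
Log2 difference of each gene between CXCR6+ and CXCR6- LP T cells, with bars of 1 SE from limma, grouped by role. Red points, Max and Rrp9, have an unadjusted p under 0.05, and 0 genes passed after adjustment. Most points lie within 0.5 of 0, and Nme1 has the widest bar (SE 1.60).

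Further genes of the same pathways were counted from lists that do not overlap the 38. These lists too were chosen with earlier results of these data known. Proliferation genes apart, 136 of 145 listed genes were measured, and 57 were lower (41.9%, against 18.8% of all genes) and 9 higher (6.62%, against 15.1%) in LP T cells. Their median log2 difference was -0.95. In CXCR6+ cells 46 were lower (33.8%, against 15.3% of all genes) and 7 higher (5.15%, against 13.2%) than in naive T cells. In CXCR6- cells 48 were lower (35.3%, against 16.7% of all genes) and 7 higher (5.15%, against 12.8%). These subset calls too were all lost with any 1 LP array left out. Between the subsets 0 passed, with a median of 0.11.

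Of the 8 further MYC-MAX network genes, Mycn was higher and Mga and Mxd3 were lower, shares near the 15.1% and 18.8% of all genes. Mycn, a MYC paralog, had low signals of 1.63 and 1.93 in CXCR6+ cells, 1.46 and 1.44 in CXCR6- cells and 0.029 in naive T cells (log2 difference 5.79, limma adjusted p = 0.0119). Since the naive signal is far below the array median, the size of this difference is uncertain. Mga, a MAX partner that represses transcription, had 6.41 and 5.63 in CXCR6+ cells, 7.36 and 6.49 in CXCR6- cells and 75.3 in naive T cells (-3.55, limma adjusted p = 0.0119). Of 11 MYC cofactors and turnover factors, 6 were lower (54.5%, against 18.8% of all genes) and none higher, led by the acetyltransferase Kat5 (-2.12) and the helicase Ruvbl1 (-1.95).

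For the RNA polymerase I machinery, 4 of 9 measured genes were lower (44.4%, against 18.8% of all genes) and 2 higher (22.2%, against 15.1%). Rrn3, the initiation factor that brings the polymerase to its promoter, had signals of 5.999 to 7.75 in LP T cells, against 65.2 in naive T cells (log2 difference -3.22, limma adjusted p = 0.0125). Polr1d, a subunit shared with RNA polymerase III, had 140 to 168 in LP T cells, against 26.9 in naive T cells (2.48, limma adjusted p = 0.0143). Polr1e (-2.13) was lower and the promoter factor subunit Taf1d (1.22) higher.

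Of 38 other small subunit processome genes, 14 were lower (36.8%, against 18.8% of all genes) and 3 higher (7.89%, against 15.1%). Nol6 (-2.92) and Imp3 (-2.44) had the largest falls, and Utp23 (1.74) and Ngdn (1.54) the largest rises. Of 40 other large subunit genes, 18 were lower (45.0%, against 18.8%) and none higher. Rpf2, which with RRS1 brings the 5S RNA particle into the large subunit, had signals of 3.85 to 5.28 in LP T cells, against 138 in naive T cells (log2 difference -4.87, limma adjusted p = 0.0119), followed by the ATPase Nvl (-2.84). Among 6 further snoRNP factors 4 were lower (66.7%, against 18.8%), led by the assembly factors Naf1 (-2.31) and Znhit3 (-2.03).

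Of 24 polyamine and nucleotide synthesis genes, 9 were lower (37.5%, against 18.8% of all genes) and 3 higher (12.5%, near the 15.1% of all genes). Smox, spermine oxidase, had signals of 13.8 to 22.7 in LP T cells, against 1.51 in naive T cells (log2 difference 3.50, limma adjusted p = 0.012), and Oaz1, the antizyme that inhibits ODC1, was higher by 1.38. Cad, which starts pyrimidine synthesis, had 2.10 to 3.35 in LP T cells, against 21.0 in naive T cells (-2.93, limma adjusted p = 0.0164), and Oaz2 had -2.33. Of 20 measured proliferation genes, 5 were lower and 2 higher, shares not far from the 18.8% and 15.1% of all genes. Mki67 (Ki-67) had 88.8 to 126 in LP T cells, against 52.6 in naive T cells (1.05, limma adjusted p = 0.0493), and Foxm1 had 1.22, whereas Birc5 (-3.31) and Aurkb (-1.86) were lower.

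**Figure D5:**
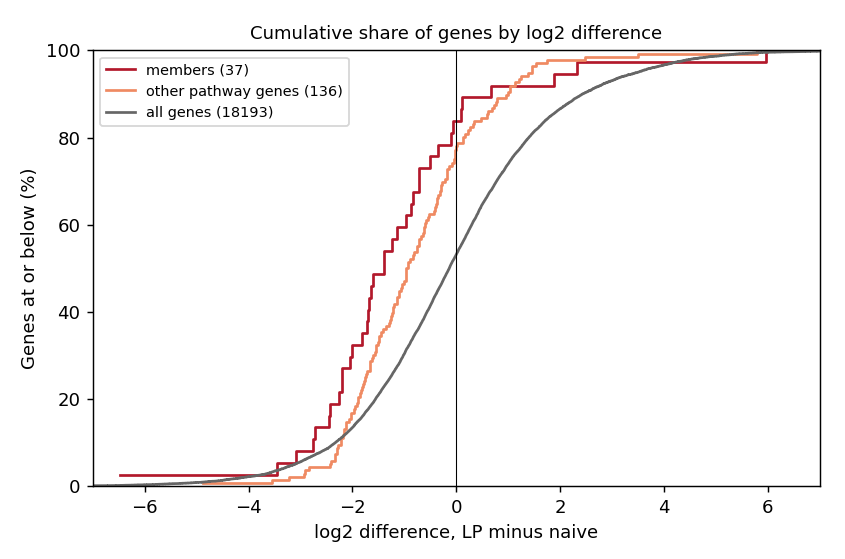
Cumulative share of genes, in percent, by log2 difference between LP and naive T cells, for the 37 genes, the 136 other genes of their pathways and all 18193 genes. Medians are -1.40, -0.95 and -0.14, and the curves of the first 2 sets lie left of that of all genes over most of the range.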

How the data were processed

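The intensity values were deposited by the authors as linear signals with a median of 1 on each array. GeneSpring is named in the methods and RMA in the submitters' processing notes. The background correction is not given in the sources used here. Of 45101 probe sets, 34945 carry 1 gene symbol, 932 several and 9211 none, and 13 control probe sets were left out. By Entrez ID 34741 matched RefSeq. Each gene was represented by its brightest probe set on average (18193 genes, 9010 with several). Signals were log2 transformed, with 2 signals of 0 set to 0.001, and no filter was applied. The 3 groups entered 1 linear fit in limma 3.58.1 and R 4.3.3 (2 residual and 1.678 prior degrees of freedom, two-sided), the naive array being assumed to vary like the LP groups. It was tested on simulated data.

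The genes and lists were chosen with earlier results of these data known. Values on every array are given for the MYC network, Srm, Odc1, Nme1 and, per other role, up to 3 genes with the largest difference. In the pathway lists up to 2 genes in each direction are named, and promoters were to be those of the largest called rises (Mxd1 and Odc1), neither of which held the motif. Alternatives were the mean of probe sets, no _s_at or _x_at probe sets, a filter at the 40th percentile, quantile normalization, log2 of the signal plus 1, a variance trend, a replicate block, arrays left out, a minimum fold and the methods' test. Figures were drawn with matplotlib 3.10.9 in Python 3.11.15.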

Additional observations from a re-analysis of the deposited data

How the results depend on the processing

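With all 5 arrays, 7 genes were called lower in LP T cells under every setting tried, Ddx21, Max, Mybbp1a, Noc2l, Nop2, Ppan and Srm. The matching share of all genes is not given here. The count of lower genes (21) was 13 with quantile normalization, 25 with a variance trend, 27 with the filter and 27 with log2 of the signal plus 1. Quantile normalization moved the median of all genes by 0.135 and the share of calls that were higher to 56.4%, against 44.7%. That share was 35.4% with the filter and 35.6% with log2 of the signal plus 1. The 13 lower genes under quantile normalization were 35.1% of the 37, against 11.9% of all genes. The filter gave 73.0% against 40.5%, log2 of the signal plus 1 gave 73.0% against 28.0%, and the variance trend gave 67.6% against 26.1%. The count of higher genes (2) was 4 with log2 of the signal plus 1 and 1 with the mean of probe sets, which also gave 1 in each subset. Of all genes, 15.5% and 10.9% were higher in LP T cells with these settings. Quantile normalization left 11 lower genes in CXCR6+ cells, against 9.48% of all genes, and 10 in CXCR6- cells, against 9.86% of all genes.

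The replicate numbers pair the LP arrays only by number, and deviations of same-numbered arrays had a correlation of 0.0193 over all genes and 0.192 over genes with a mean signal of at least 1. With the replicate block, 10 genes were lower (27.0%, against 9.93% of all genes) and 1 higher (against 9.37% of all genes) in LP T cells. In CXCR6+ and CXCR6- cells limma then called 0 of all genes. There 22 and 25 of the 37 had a limma unadjusted p under 0.05, against 7662 and 7741 of all 18193 genes. The block could not move any difference, since each LP group holds both replicate numbers and the naive array was set midway between them.

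With 1 LP array left out, lower genes numbered 0 to 5 and higher genes 0 to 1 (Nme1) in LP T cells, and 0 to 0 in each subset. Medians then ran from -1.539 to -1.377 in LP T cells, -1.439 to -1.212 in CXCR6+ cells and 0.079 to 0.228 between the subsets. Medians with quantile normalization were -0.864 (LP), -0.988 (CXCR6+), -0.863 (CXCR6-) and 0.011 between the subsets. Without _s_at and _x_at probe sets they were -1.593 (LP) and -1.637 (CXCR6-).

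Signs turned for LP against naive T cells with quantile normalization for Mnt (0.042), Polr1a (0.079), Npm1 (-0.100), Nhp2 (0.356) and Bop1 (0.249). With the mean of probe sets they turned for Polr1c (-0.209), Npm1 (-0.485), Bop1 (0.631) and Pes1 (0.322), and without _s_at and _x_at probe sets for Polr1c (-0.514), Wdr43 (0.005) and Nme1 (-1.560). With 1 array left out, Polr1c ran from -0.029 to 0.221 and Ncl from -0.171 to 0.031. Between the subsets Myc ran from -0.275 to 0.177 and Nme1 from -4.176 to 0.133, and Nme1 had 0.494 without _s_at and _x_at probe sets. The cause of these changes was not tested. Between the subsets no setting called any of the 37 genes. A minimum fold of 2 changed no count. The 5 arrays, with 1 of naive T cells, limit every value.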
